A study of Mus musculus with 16 samples.

Results

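Acod1 encodes the enzyme that decarboxylates cis-aconitate to itaconate. It was read here together with 8 genes in or beside the tricarboxylic acid (TCA) cycle. The 9 genes are Acod1, Aco1, Cs, Idh1, Idh2, Idh3a, Sdha, Sdhb and Slc25a1. Aco1 and Idh1 encode cytosolic enzymes and Slc25a1 a citrate carrier, so these lie beside the cycle. Acod1 was chosen by its measured level, since it was among the genes that stood out in cells given tirzepatide against vehicle. The others were chosen by their place in or beside the cycle, with earlier results of these data known. They are 9 of the 21965 genes in the deposited table, each matched by its symbol to 1 identifier, and all 9 passed the filter on low counts that left 11319 genes.

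RNA was sequenced from RAW264.7 cells, a mouse macrophage-like line that grew from a leukaemia, in 16 libraries with 4 in each of 4 groups. The groups were oxLDL, which is oxidised low-density lipoprotein, at 50 µg/ml together with tirzepatide at 100 nmol/ml, oxLDL alone at 50 µg/ml, tirzepatide alone at 100 nmol/ml, and a vehicle control of culture medium. The unit of the tirzepatide dose is given as the labels state it. Macrophages that take up oxLDL become lipid-laden foam cells, and tirzepatide is a peptide agonist at the incretin receptors of GIP and GLP-1. All groups were the same unmodified cell line, so no primary macrophages were studied. Neither the treatment time nor the origin of the numbered libraries (separate cultures or not) is stated in the labels. The p-values therefore cover only the spread between libraries, which may be technical.

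In the TCA cycle, citrate synthase makes citrate, aconitase turns it through cis-aconitate into isocitrate, and the isocitrate dehydrogenases carry isocitrate on to 2-oxoglutarate. Activated macrophages can divert cis-aconitate to itaconate through Acod1, which Toll-like receptor and interferon signalling are known to induce strongly. Itaconate inhibits succinate dehydrogenase, the enzyme that holds Sdha and Sdhb, and citrate that leaves the mitochondrion through Slc25a1 feeds lipid synthesis in the cytosol.

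Library totals ran from 15877278 to 17336019 expected counts, and edgeR put the biological coefficient of variation at 0.0633. All 8 macrophage markers were present in every group, among them Adgre1, Csf1r and Spi1. Of 3 T-cell markers, Cd3e and Cd3g were at 0 in all 16 libraries, and Cd3d reached at most 0.297 TPM, with oxLDL. Summed levels in a library reached at most 0.35 TPM for B-cell, 0.648 TPM for fibroblast, 1.33 TPM for epithelial and 3.5 TPM for endothelial markers. The summed level of the macrophage markers was 21300 to 23400 TPM in the combination, 21600 to 22900 TPM with oxLDL, 20200 to 21100 TPM with tirzepatide and 17000 to 18300 TPM in control. Transcripts of 12 pancreatic acinar genes, which macrophages are not known to make, reached 121 CPM (counts scaled to a common library size) in control library 1 and 64.7 CPM in control library 2, and at most 34.0 CPM elsewhere. One library of the combination, number 2, stood near the level of tirzepatide alone for several genes that oxLDL raised, which is given beside the genes concerned.

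The promoters of Acod1 and Slc25a1 are shown because Acod1 was higher and Slc25a1 lower in cells given both agents than in control. They are the 250 bases before the start of each gene in RefSeq on build GRCm38.p6, written 5′ to 3′ on the strand of the gene, with motif matches in capitals. RefSeq promoters were found for 8 of the 9 genes. Of 9 motifs searched on both strands, whose patterns were written after these sequences had been read, 7 matched in one window or the other, with no overlap between matches. The STAT motif TTCNNNGAA, found in 7.02% of promoters, and the AP-1 motif TGANTCA, found in 6.75%, matched in neither, and a match or its lack is a description of letters only.
Acod1, chr14:103046762-103047011, plus strand: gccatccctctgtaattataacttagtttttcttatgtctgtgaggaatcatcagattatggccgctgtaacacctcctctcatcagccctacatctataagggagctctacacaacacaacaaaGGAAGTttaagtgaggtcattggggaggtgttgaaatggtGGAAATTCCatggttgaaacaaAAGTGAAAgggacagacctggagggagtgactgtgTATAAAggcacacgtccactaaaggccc
Slc25a1, chr16:17928220-17928469, minus strand: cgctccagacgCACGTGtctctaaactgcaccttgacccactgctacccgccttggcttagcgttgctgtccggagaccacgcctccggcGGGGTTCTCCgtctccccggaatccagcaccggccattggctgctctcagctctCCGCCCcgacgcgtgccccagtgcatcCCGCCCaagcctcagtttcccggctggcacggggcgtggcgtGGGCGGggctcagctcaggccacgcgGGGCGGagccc

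The Acod1 promoter held TATAAA beginning 28 bases before the start, a motif found in 12.4% of the 32851 promoters of the table on either strand. Upstream of it lay GGAANTTCC, a palindrome like the sites of NF-kB, 85 bases before the start (in 0.813% of promoters), AANNGAAA, a core of interferon regulatory factor sites, at 63 bases (21.3%), and GGAAGT, the core of PU.1 and other ETS sites, at 125 bases (19.7%). The NF-kB consensus, a different and more common pattern found in 7.25% of promoters, had no match in this window. The Slc25a1 promoter had no TATAAA and held 4 GC boxes (GGGCGG on either strand, in 32.7% of promoters), 1 E-box CACGTG at 239 bases (6.02%) and 1 match to the NF-kB consensus at 160 bases. The Acod1 promoter was 44.4% GC and that of Slc25a1 70.0%, beside a median of 52.4% over all promoters. The other 6 genes with a promoter in the table had GC contents of 55.2% to 67.2%, so Acod1 was the only one of the 8 below the median.

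Acod1 (ENSMUSG00000022126) was about as high under each agent alone as under both together. Its level was 24.0, 23.3, 22.7 and 23.9 TPM in the 4 combination libraries, 24.9, 23.2, 22.0 and 21.4 TPM with oxLDL, 26.6, 24.0, 22.7 and 23.4 TPM with tirzepatide, and 14.0, 11.2, 12.7 and 12.6 TPM in control. The 12 treated libraries all lay above the 4 controls, and the 3 treated groups overlapped each other. Group means were 23.5 ± 0.622 TPM in the combination, 22.9 ± 1.52 TPM with oxLDL, 24.2 ± 1.69 TPM with tirzepatide and 12.6 ± 1.16 TPM in control (SD, n = 4 each). These levels rest on 469 to 580 expected counts in a treated library and 248 to 308 in a control. The order of the groups was tirzepatide, combination, oxLDL, control, in which the first 3 neighbours did not differ beyond their spread. Library 1 had the highest Acod1 level in each of the 4 groups.

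**Figure D1:**
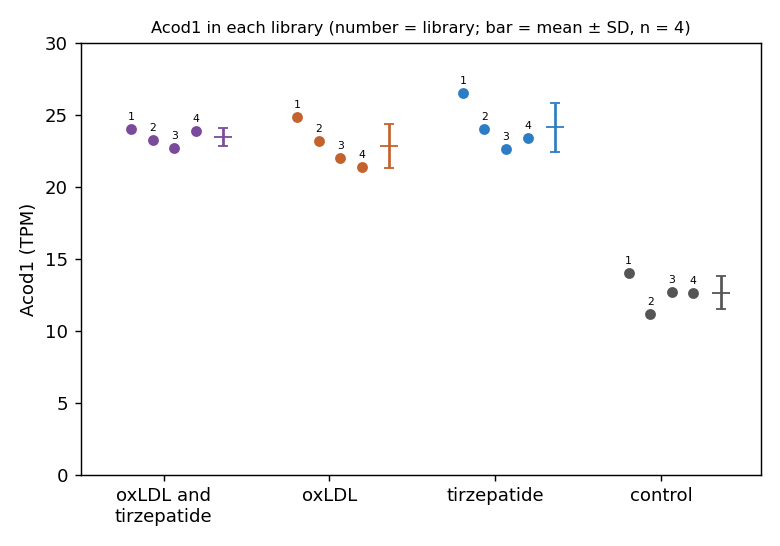
Acod1 level in TPM on the vertical axis for each of the 16 libraries, with bars for the mean and SD of 4 libraries per group. The combination, oxLDL and tirzepatide libraries share a range of 21.4 to 26.6 TPM, and the controls lie between 11.2 and 14.0 TPM.

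Against control, the log2 change of Acod1 was 0.88 (SE 0.08) in the combination, 0.85 (SE 0.08) with oxLDL and 0.90 (SE 0.08) with tirzepatide, which are folds of 1.84, 1.80 and 1.87. These 3 values share the same 4 control libraries, and the last is the contrast on which Acod1 was chosen, so they are given as a description without a test. Without controls 1 and 2, which held the acinar transcripts, the log2 changes were 0.92, 0.88 and 0.94 in the same order. The summed macrophage markers given above were lower in control too, and their part in the Acod1 difference was not tested. In bulk RNA, fewer cells that express a gene and less of its RNA per cell cannot be told apart.

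No difference in Acod1 was detected when tirzepatide was added to oxLDL. This is the comparison that uses none of the libraries of tirzepatide against control, in which Acod1 is known to have stood out. Whether other contrasts also entered the choice is not known. The log2 change of the combination against oxLDL was 0.03 (SE 0.08, 95% interval -0.13 to 0.20, adjusted p = 0.907 by edgeR's quasi-likelihood test). The interval, which covers only the spread between these libraries, lay below the log2 change of 0.85 with oxLDL against control. An effect inside it cannot be seen with 4 libraries a group. The combination against tirzepatide differed by -0.02 (SE 0.08, 95% interval -0.18 to 0.14), which is a description, since it reuses the tirzepatide libraries. The interaction, that is, the log2 departure of the combination from the sum of both single effects, was -0.87 (SE 0.11), about the size of either single effect. It contains the tirzepatide and control libraries and is a description for the same reason.

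None of the other 8 genes passed the test with oxLDL alone. With oxLDL against control, 0 of the 8 passed (edgeR's quasi-likelihood test, adjusted p under 0.05), beside 4.54% of all tested genes called, 2.49% higher and 2.05% lower. At an unadjusted p under 0.05 the count was also 0, beside 2042 of all 11319 tested genes. DESeq2 called 0 of the 8, beside 654 of the 11319. Their log2 changes ran from -0.11 for Sdhb to 0.10 for Idh3a, with a median of -0.03, beside a median of 0.00 over all tested genes. With tirzepatide against control the same 8 log2 changes ran from -0.10 for Slc25a1 to 0.10 for Aco1 and Idh3a, with a median of -0.03, given as a description.

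In cells given both agents, Idh1 rose and Slc25a1 fell against control. These 2 of the 8 other genes passed edgeR's quasi-likelihood test, beside 8.94% of all tested genes called, 4.69% higher and 4.25% lower. At an unadjusted p under 0.05 the count was 5 of 8, beside 2646 of all 11319 tested genes. DESeq2 called 3, which were Cs, Idh1 and Slc25a1, beside 1128 of the 11319. Neither call was stable when single libraries were left out, as described with each gene. Against oxLDL alone 0 of the 8 passed, beside 0.0353% of all genes. At an unadjusted p under 0.05 there were 2, beside 1146 of the 11319, and DESeq2 called 0, beside 15. Against tirzepatide alone 0 of the 8 passed, beside 1.54% of all genes, 0.76% higher and 0.777% lower. At an unadjusted p under 0.05 there were 2, beside 1564 of the 11319, and DESeq2 called 1, Idh1, beside 322. For the interaction 0 of the 8 passed, beside 0.0707% of all genes. At an unadjusted p under 0.05 there was 1, beside 1168 of the 11319, and DESeq2 called 0, beside 54.

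**Figure D2:**
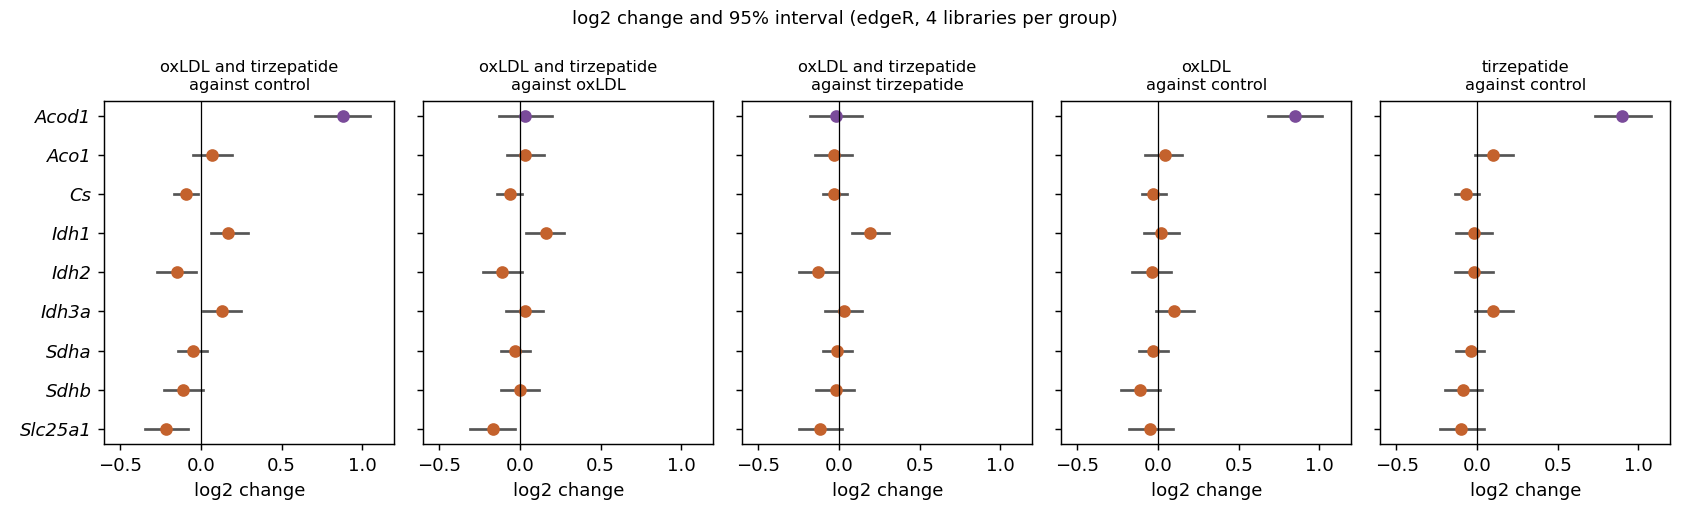
Log2 change of each of the 9 genes with its 95% interval from edgeR, on the horizontal axis, in the 5 comparisons between groups, with 4 libraries per group. Acod1, in purple, stands at 0.85 to 0.90 against control and near 0 where the combination is set against a single agent, and the other 8 genes stay between -0.22 and 0.19.

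Idh1 (ENSMUSG00000025950), the cytosolic isocitrate dehydrogenase that uses NADP+ and supplies NADPH, was highest under both agents together. Its level was 220, 197, 192 and 194 TPM in the combination, 179, 176, 186 and 180 TPM with oxLDL, 172, 184, 192 and 164 TPM with tirzepatide, and 182, 169, 174 and 182 TPM in control. All 4 combination libraries lay above every oxLDL and every control library on this scale, and they met the tirzepatide libraries at 192 TPM. On the scale of normalised counts, 214 to 252 CPM in the combination overlapped 196 to 219 CPM in control. The log2 change against control was 0.17 (SE 0.05, adjusted p = 0.0469 by edgeR's quasi-likelihood test), and without combination library 1, the highest, it was 0.12 (adjusted p = 0.216 by the same test). The call was kept in 8 of 25 alternative settings. Against oxLDL the log2 change was 0.16 (SE 0.05, adjusted p = 0.361 by edgeR's quasi-likelihood test). Against tirzepatide it was 0.19 (SE 0.05, adjusted p = 0.0767 by edgeR's quasi-likelihood test), and 5 of 25 alternatives called it there. With oxLDL alone against control Idh1 differed by 0.02 (SE 0.05), and the interaction was 0.17 (SE 0.08, adjusted p = 0.432 by edgeR's quasi-likelihood test).

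Slc25a1 (ENSMUSG00000003528), the carrier that exports citrate from the mitochondrion, was lowest under both agents together. Its level was 41.0, 39.1, 44.0 and 43.6 TPM in the combination, 46.4, 54.1, 52.1 and 43.7 TPM with oxLDL, 41.5, 46.4, 50.0 and 47.8 TPM with tirzepatide, and 47.3, 44.7, 52.9 and 50.4 TPM in control. The combination libraries lay below all 4 controls, the closest pair being 44.0 and 44.7 TPM, and overlapped the oxLDL and the tirzepatide libraries in TPM. In normalised counts the combination, at 32.9 to 36.0 CPM, lay below control (37.9 to 43.8 CPM) and just below oxLDL (36.2 to 41.7 CPM). It overlapped tirzepatide on that scale, at 34.3 to 41.0 CPM. The log2 change against control was -0.22 (SE 0.07, adjusted p = 0.0397 by edgeR's quasi-likelihood test). It was -0.18 without control library 3, the highest control (adjusted p = 0.154 by the same test), and 16 of 25 alternative settings kept the call. Against oxLDL it was -0.17 (SE 0.07, adjusted p = 0.385 by edgeR's quasi-likelihood test) and against tirzepatide -0.12 (SE 0.07, adjusted p = 0.435 by the same test). The interaction was -0.07 (SE 0.09, adjusted p = 0.823 by edgeR's quasi-likelihood test), so a greater effect of both agents than of their sum was not shown.

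**Figure D3:**
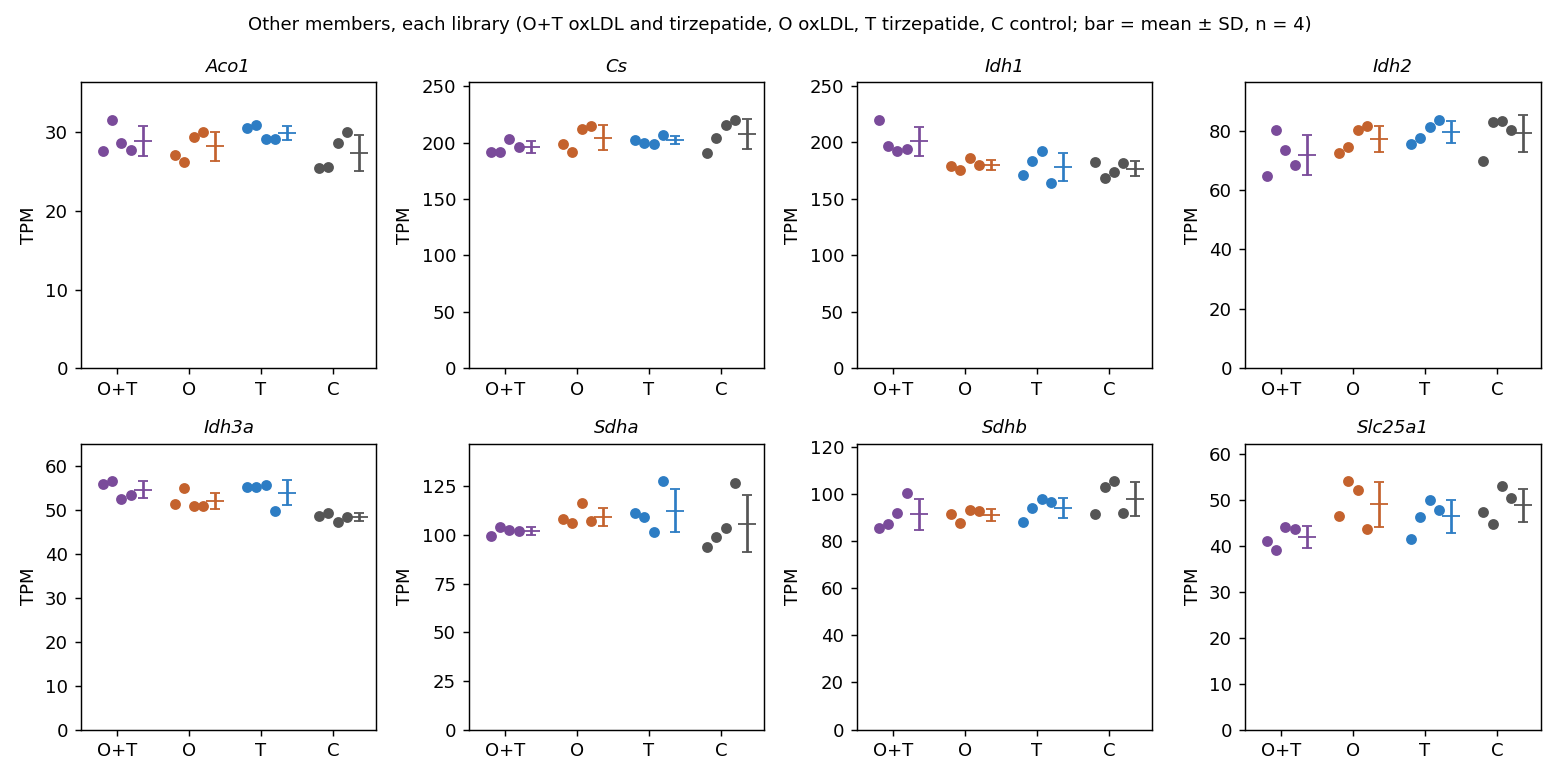
Level in TPM on the vertical axis of the 8 genes other than Acod1 in each of the 16 libraries, with bars for the mean and SD of 4 libraries per group. Idh1 is highest in the combination at 192 to 220 TPM, Slc25a1 is lowest there at 39.1 to 44.0 TPM, and 1 control and 1 tirzepatide library of Sdha reach 127 and 128 TPM.

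Citrate synthase, encoded by Cs (ENSMUSG00000005683) and the entry step of the cycle, averaged 196 ± 5.26 TPM in the combination, 204 ± 11 TPM with oxLDL, 202 ± 3.6 TPM with tirzepatide and 208 ± 13.2 TPM in control (SD, n = 4 each). Its log2 change in the combination against control was -0.09 (SE 0.04, adjusted p = 0.122 by edgeR's quasi-likelihood test), which DESeq2 called (adjusted p = 0.0459). Cs libraries ranged from 192 to 203 TPM in the combination and from 191 to 220 TPM in control, so the groups overlapped on this scale, while in normalised counts 284 to 291 CPM in the combination lay below 295 to 314 CPM in control. Aco1 (ENSMUSG00000028405) is the cytosolic aconitase, which becomes an iron regulatory protein when it loses its iron-sulphur cluster. It averaged 28.9 ± 1.87 TPM in the combination, 28.2 ± 1.86 TPM with oxLDL, 30 ± 0.903 TPM with tirzepatide and 27.4 ± 2.31 TPM in control (SD, n = 4 each). Its log2 change in the combination against control was 0.07 (SE 0.06, adjusted p = 0.491 by edgeR's quasi-likelihood test).

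Idh2 (ENSMUSG00000030541), the mitochondrial isocitrate dehydrogenase that uses NADP+, had a sign opposite to its cytosolic counterpart in the combination, with wide spread. It measured 64.6, 80.2, 73.3 and 68.5 TPM in the combination, 72.3 to 81.4 TPM with oxLDL, 75.5 to 83.7 TPM with tirzepatide, and 69.9, 83.0, 83.3 and 80.0 TPM in control. The groups overlapped, with combination library 2 among the controls and control library 1 among the combination. The log2 change against control was -0.15 (SE 0.06, adjusted p = 0.122 by edgeR's quasi-likelihood test). It was -0.21 without combination library 2 (adjusted p = 0.0177 by the same test), a call that did not stand on all libraries.

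Idh3a (ENSMUSG00000032279), the catalytic subunit of the NAD+-dependent enzyme of the cycle, was lowest in control on the TPM scale. It measured 55.8, 56.6, 52.6 and 53.5 TPM in the combination, 51.4, 54.9, 51.0 and 51.0 TPM with oxLDL, 55.3, 55.1, 55.6 and 49.8 TPM with tirzepatide, and 48.7, 49.3, 47.3 and 48.5 TPM in control. All 12 treated libraries lay above the 4 controls in TPM, but in normalised counts the groups overlapped, at 54.6 to 62.2 CPM in the combination and 50.8 to 57.0 CPM in control. The log2 change against control was 0.13 (SE 0.06, adjusted p = 0.163 by edgeR's quasi-likelihood test) in the combination and 0.10 (SE 0.06, adjusted p = 0.356 by the same test) with oxLDL. It did not pass in any of 25 alternatives in either comparison.

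Sdha (ENSMUSG00000021577), the flavoprotein subunit of succinate dehydrogenase that takes electrons from succinate, showed TPM and counts that did not always move together. It measured 99.5, 104, 102 and 102 TPM in the combination, 108, 106, 116 and 107 TPM with oxLDL, 111, 109, 101 and 128 TPM with tirzepatide, and 93.9, 98.8, 103 and 127 TPM in control. Control library 4 and tirzepatide library 4 stood highest in TPM. In normalised counts tirzepatide library 4 was again the highest of its group, at 144 CPM beside 129 to 136 CPM, while control library 4, at 141 CPM, lay inside its group's range of 135 to 145 CPM. The ratio of TPM to CPM, which depends on the transcript length assigned to the gene in each library, was 0.744 to 0.774 in the combination, 0.770 to 0.831 with oxLDL, 0.783 to 0.878 with tirzepatide and 0.703 to 0.886 in control. In normalised counts Sdha ran from 132 to 141 CPM in the combination, from 135 to 139 CPM with oxLDL, from 129 to 144 CPM with tirzepatide and from 135 to 145 CPM in control. The log2 change of counts in the combination against control was -0.05 (SE 0.04, adjusted p = 0.487 by edgeR's quasi-likelihood test). Which transcript of Sdha was read could not be settled from gene values.

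**Figure D4:**
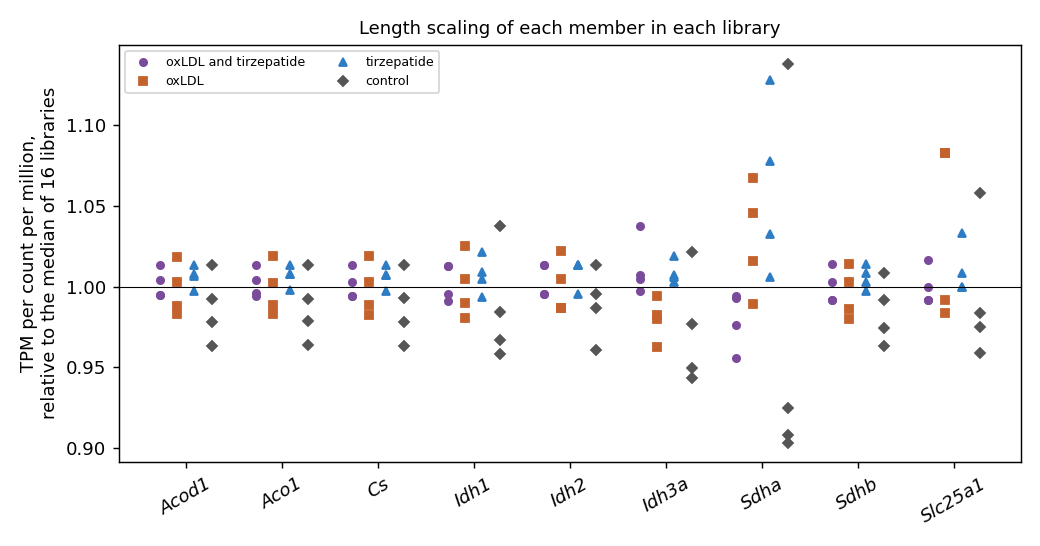
Ratio of the deposited TPM to CPM on the vertical axis, divided by the median of the 16 libraries, for each of the 9 genes. The CPM in this ratio was scaled by the library total only. There is 1 point per library and a symbol per group. Sdha spreads most, from 0.703 to 0.886 as an undivided ratio in control, and Acod1 little, at 0.735 to 0.777 over all libraries.

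Sdhb (ENSMUSG00000009863), the iron-sulphur subunit of the same enzyme, averaged 91.3 ± 6.66 TPM in the combination, 91.1 ± 2.46 TPM with oxLDL, 94.0 ± 4.38 TPM with tirzepatide and 97.8 ± 7.34 TPM in control (SD, n = 4 each). Its log2 change was -0.11 (SE 0.06) both in the combination (adjusted p = 0.248 by edgeR's quasi-likelihood test) and with oxLDL (adjusted p = 0.324 by the same test) against control. The combination differed from oxLDL by 0.00 (SE 0.06, 95% interval -0.12 to 0.12).

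Per transcript length, Cs (191 to 220 TPM) stood above Idh1 (169 to 182 TPM) in control, followed by Sdha, Sdhb, Idh2, Slc25a1, Idh3a, Aco1 and Acod1. Sdha and Sdhb overlapped in control, as did Slc25a1 and Idh3a, and the other neighbours in this order did not. In the combination the levels of Idh1 and Cs overlapped, at 192 to 220 TPM and 192 to 203 TPM. Acod1 remained the lowest of the 9 in every group, its highest treated library at 26.6 TPM with tirzepatide being below the lowest Aco1 library of that group at 29.2 TPM.

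The rest of the cycle, its feeder routes and the regulators around it were read in 10 lists with 86 different tested genes. With oxLDL against control 3 of the 86 rose and 2 fell, and in the combination 3 rose and 0 fell against control, 1 rose against tirzepatide and 0 passed against oxLDL or in the interaction. The last 2 had 6 and 9 genes at an unadjusted p under 0.05 and 0 called by DESeq2. These calls fell in 3 lists, of Acod1 induction, the itaconate and NRF2 literature, and iron regulation. The other 7 held the other TCA enzymes (13 genes), the assembly factors of succinate dehydrogenase (4), pyruvate entry (13 of 14 tested, without Pdk4), citrate export and use (8), glutamine and glutamate entry (10), itaconate export and breakdown (6, of which 3 are also TCA enzymes) and iron-sulphur cluster assembly (10). These 7, with 61 different tested genes, are put together because none of their genes passed edgeR's quasi-likelihood test in any of the 5 comparisons, so the count of 0 follows from the grouping. In the order of the combination against control, against oxLDL and against tirzepatide, oxLDL against control and the interaction, the shares of all tested genes called were 8.94%, 0.0353%, 1.54%, 4.54% and 0.0707%. At an unadjusted p under 0.05 the counts in the same order were 8, 1, 6, 6 and 4 of the 61, beside 2646, 1146, 1564, 2042 and 1168 of all 11319. DESeq2 called Acly, the enzyme that splits exported citrate into acetyl-CoA, in the first comparison, Got2, the mitochondrial aspartate aminotransferase, in the third and Dlst, a subunit of the 2-oxoglutarate dehydrogenase complex, in the fourth. Over all 11319 tested genes DESeq2 called 1128, 15, 322, 654 and 54 in the same order. Median log2 changes of the 61 genes were -0.02, 0.00, -0.02, -0.01 and -0.02 in that order, beside 0.00 over all tested genes in each.

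Clybl, which takes part in itaconate breakdown, averaged 9.83 ± 2.53 TPM in the combination, 8.92 ± 0.284 TPM with oxLDL, 10.2 ± 0.827 TPM with tirzepatide and 11.1 ± 0.443 TPM in control (SD, n = 4 each), and it passed in no tested comparison.

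Among 11 signalling and transcription genes known to act in Acod1 induction, Fos rose with oxLDL, with and without tirzepatide, and Tlr4 rose with both agents. With oxLDL against control 1 of the 11 passed, beside 4.54% of all tested genes, and in the combination against control 2 of the 11, beside 8.94%. In the combination against tirzepatide it was 1 of 11, beside 1.54%. Fos, an early-response factor of the AP-1 family, measured 24.8, 8.45, 33.9 and 33.7 TPM in the combination, 26.1, 27.7, 31.5 and 24.6 TPM with oxLDL, 9.17, 11, 10.8 and 8.82 TPM with tirzepatide, and 7.43, 7.36, 9 and 8 TPM in control. The oxLDL libraries lay apart from tirzepatide and control, and so did the combination except library 2, while Acod1 in that library, at 23.3 TPM, was like the other 3. The log2 change of Fos was 1.65 (SE 0.24, adjusted p = 0.000108 by edgeR's quasi-likelihood test) in the combination and 1.78 (SE 0.24, adjusted p = 4.15e-05) with oxLDL against control. In the combination against tirzepatide it was 1.35 (SE 0.23, adjusted p = 0.00246 by edgeR's quasi-likelihood test), and 24 of 25 alternatives kept that call, the exception being limma on log2(TPM + 1) (adjusted p = 0.0921). Without combination library 2 the combination stood at 1.93 against control and 1.64 against tirzepatide. Tlr4, the receptor for bacterial lipopolysaccharide, averaged 27.0 ± 1.63 TPM in the combination, 22.9 ± 1.09 TPM with oxLDL, 23.3 ± 1.32 TPM with tirzepatide and 21.8 ± 1.98 TPM in control (SD, n = 4 each). Its log2 change in the combination against control was 0.30 (SE 0.07, adjusted p = 0.00709 by edgeR's quasi-likelihood test), the only comparison in which it passed. Irf1, Cebpb, Rela, Jun, Myd88, Ifnar1, Ifnar2 and Nfkb1 did not pass edgeR's quasi-likelihood test in the combination against any group, with oxLDL against control or in the interaction. DESeq2 called Jun and Tlr4 beside Fos in the combination against tirzepatide, where it called 322 of all 11319 tested genes. With tirzepatide against control, a description here, Nfkb1 stood at 70.6 ± 2.59 TPM with tirzepatide and 62.1 ± 3.05 TPM in control (SD, n = 4 each), a log2 change of 0.22 (SE 0.06).

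Of 7 tested genes taken from the literature on itaconate and NRF2, the RNA of 1 fell with oxLDL, beside 2.05% of all tested genes called lower there. Neither itaconate nor any protein was measured, so a link of these RNA levels to itaconate was not tested. Nfkbiz, which encodes the NF-kB cofactor IkB-zeta, measured 222, 278, 237 and 231 TPM in the combination, 210, 216, 229 and 227 TPM with oxLDL, 264, 257, 264 and 280 TPM with tirzepatide, and 254, 264, 277 and 273 TPM in control. The oxLDL libraries all lay below control and tirzepatide, and combination library 2 lay among the controls. Its log2 change with oxLDL against control was -0.28 (SE 0.05, adjusted p = 0.00106 by edgeR's quasi-likelihood test). The NRF2 gene Nfe2l2, its inhibitor Keap1, Atf3, Tfeb, Gapdh and Ldha passed in no tested comparison.

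Of 7 genes of the iron regulatory system in which Aco1 acts, 2 rose and 1 fell with oxLDL against control, beside 2.49% of all tested genes called higher and 2.05% called lower. Tfrc, the transferrin receptor, fell (log2 change -0.20, SE 0.06, adjusted p = 0.0319 by edgeR's quasi-likelihood test), and 18 of 25 alternatives kept that call. Slc40a1, the iron exporter ferroportin, rose to 7.27 ± 0.525 TPM with oxLDL, against 4.56 ± 0.404 TPM in control (SD, n = 4 each; log2 change 0.67, SE 0.15, adjusted p = 0.00676 by edgeR's quasi-likelihood test). Ftl1, the ferritin light chain, rose as well (log2 change 0.47, SE 0.08, adjusted p = 0.000827 by edgeR's quasi-likelihood test), though near-identical copies of this gene make its count uncertain, and the log2 change was 0.10 under quantile normalization (adjusted p = 0.54 by limma). Slc40a1 also rose in the combination against control (log2 change 0.52, SE 0.15, adjusted p = 0.0294 by edgeR's quasi-likelihood test), where library 2 held 4.10 TPM and the other 3 held 6.99 to 7.85 TPM. That call was kept in 18 of 25 alternatives. By the same test Tfrc (log2 change 0.00, SE 0.06, adjusted p = 0.98) and Ftl1 (0.24, SE 0.08, adjusted p = 0.0726) did not pass there. Combination library 2 held 5990 TPM of Ftl1 and the other 3 held 7450 to 9680 TPM, beside 6230 to 7180 TPM in control. Aco1 itself passed in none of these comparisons.

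The 5 genes nearest to Acod1 over the 16 libraries were Plin2, Igsf6, Slc7a11, Cd300ld and Lyz1. Likeness was the root mean square difference in log2 CPM, each gene set to its control mean, over 9474 genes with at least 5 TPM in 1 group. The distance was 0.245 for Plin2, 0.256 for Igsf6, 0.315 for Slc7a11, 0.350 for Cd300ld and 0.361 for Lyz1, beside a median of 0.769 and a 1st percentile of 0.543 over the compared genes. Plin2, which coats lipid droplets, averaged 686 TPM in the combination, 711 TPM with oxLDL, 506 TPM with tirzepatide and 341 TPM in control. Slc7a11, the cystine transporter, averaged 143 TPM in the combination, 139 TPM with oxLDL, 113 TPM with tirzepatide and 84.9 TPM in control. Both averaged less with tirzepatide alone than with oxLDL alone, whereas Acod1 was at about the same level under each. Igsf6, an immunoglobulin superfamily gene of myeloid cells, averaged 30.8 TPM in the combination, 22.0 TPM with oxLDL, 26.4 TPM with tirzepatide and 16 TPM in control. Reads of Lyz1 may be split with its near-identical neighbour Lyz2.

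**Figure D5:**
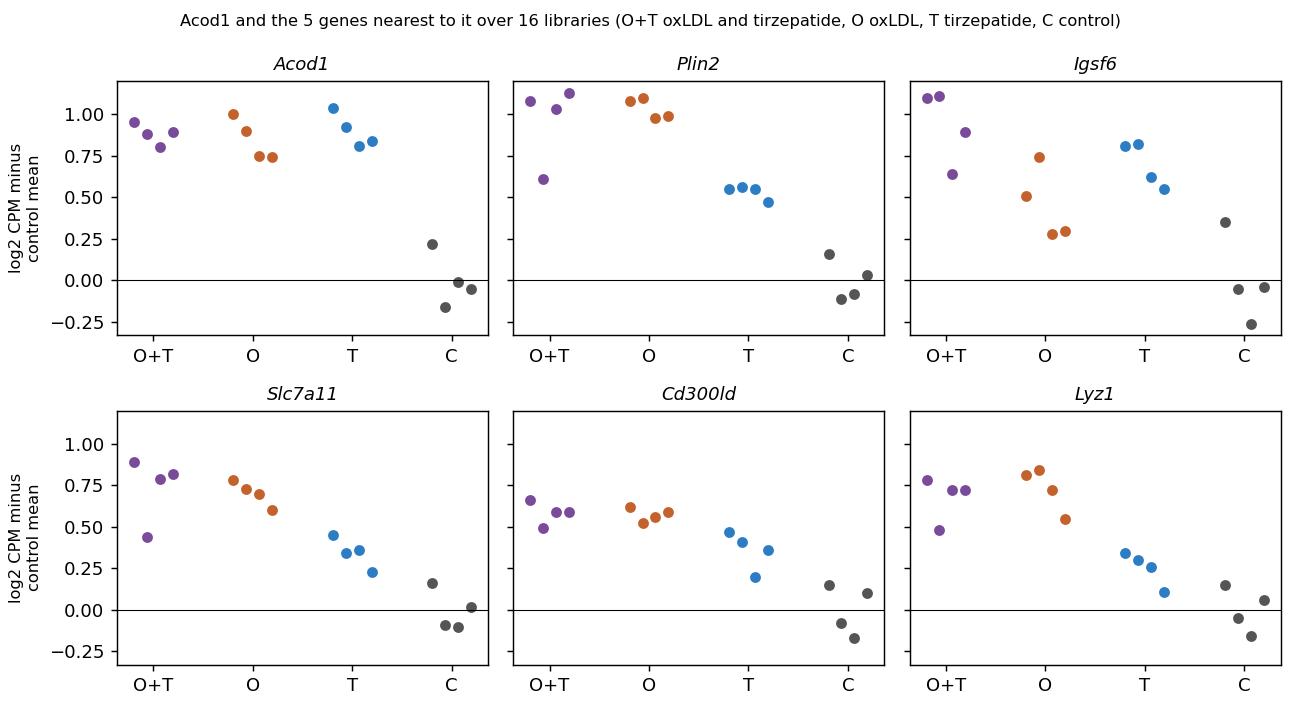
Log2 CPM minus the mean of the 4 controls on the vertical axis for Acod1 and the 5 genes nearest to it, with 1 point per library and groups in the order combination (O+T), oxLDL (O), tirzepatide (T) and control (C). Acod1 is level over the 3 treated groups, while Plin2, Slc7a11 and Lyz1 are lower with tirzepatide than with oxLDL and lower in combination library 2, at 0.61, 0.44 and 0.48, than in the other 3 combination libraries.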

How the data were processed

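The deposited table held, per gene and library, an unscaled expected count from the authors' RSEM run, and the authors' deposited TPM, which is scaled for transcript length and depth. Tools in the submitters' processing notes were RSEM, StringTie 1.3.1, Bowtie2 2.2.8 and fastp 0.18.0, and the builds there were GRCm39 and mm39; the annotation release is not given in the sources used here. The reference at hand was of build GRCm38, so coordinates are given for RefSeq promoters only.

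The counts, rounded, went into edgeR 4.0.16 under R 4.3.3, with filterByExpr (minimum count 10), TMM normalization and quasi-likelihood tests in 1 fit of all 16 libraries, with Benjamini-Hochberg adjustment over 11319 genes and a threshold of 0.05. CPM values were TMM-normalised, apart from 2 uses. The CPM of the acinar genes and the CPM in the ratio of TPM to CPM were scaled by the library total only. Intervals for log2 changes are 95% t intervals of that fit. Replicates differed by more than counting error, with a chi-square per degree of freedom of 2.71 to 17.7 over 24 pairs of libraries of a group.

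The members, the gene lists, the marker lists and the rules for named genes were chosen with earlier results of these data known. The rule named all 9 members, up to 3 called genes per list and comparison, and the 5 genes nearest to Acod1; Clybl and genes called by DESeq2 only were named outside it, after their values were seen. Some genes of the lists are counted but not reported here by name. Aldoa was left out because its symbol has more than 1 identifier. Alternatives were a block for the replicate number, only the groups compared, DESeq2 size factors, quantile normalization with limma 3.58.1, no filter, a filter of 5 TPM in 4 libraries, DESeq2 1.42.0, limma on log2(TPM + 1), leaving out controls 1 and 2, and leaving out each library in turn.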

Additional observations from a re-analysis of the deposited data

Results flagged for a closer look

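Of 72 sets of 4 libraries of 1 group, 7 held a library whose gap to the nearest other exceeded Dixon's 95% critical value. Chance passes that value in about 1 set in 20. A set was 1 gene in 1 group, read in TPM and again in CPM, so the sets are not independent. Idh3a in tirzepatide library 4 is counted on both scales. For Idh1, library 1 was high in 3 groups. It measured 220 TPM in combination library 1 (the other 3 at 192 to 197), 210 CPM in oxLDL library 1 (others 202 to 204) and 219 CPM in control library 1 (others 196 to 197). Idh3a measured 54.9 TPM in oxLDL library 2 (others 51.0 to 51.4). In tirzepatide library 4 it was low, at 49.8 TPM (others 55.1 to 55.6) and 53.3 CPM (others 58.9 to 59.7). Sdhb measured 56.8 CPM in combination library 4 (others 50.3 to 51.4).

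The effect of tirzepatide on Acod1 differed with and without oxLDL, by an interaction of -0.87 on the log2 scale (SE 0.11). Tirzepatide libraries stood 0.90 above control, and combination libraries stood 0.03 above oxLDL. The first of these 2 values is the contrast on which the gene was chosen, so the difference is a description.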

How the results depend on the processing

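Over 25 alternatives the log2 change of Acod1 stayed within 0.83 to 0.96 in the combination, 0.79 to 0.92 with oxLDL and 0.85 to 0.98 with tirzepatide against control. The count of the 9 genes called in the combination against tirzepatide was 0, and 1 (Idh1) under the replicate block, with no filter, with DESeq2 and without controls 1 and 2; leaving out single libraries gave 0 to 1, the 1 without control 1. In the combination against control the count was 3. It includes Acod1, whose values against control are a description, so no test is read from its call. The count was 1 (Acod1), so none of the other genes, in the fit of only the groups compared and by limma on log2(TPM + 1). Leaving out single libraries gave 1 to 4, with 1 (Acod1) without control 3, combination 1 or combination 4. The cause was not tested. Counts in the other comparisons did not move. The 1 gene counted with oxLDL against control and in the interaction was Acod1, again a description.

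Of values that passed no test, changes of sign included Aco1 with oxLDL against control without controls 1 and 2 (-0.03), Idh1 there under quantile normalization (-0.01), Sdha there by limma on log2(TPM + 1) (0.06), and Sdha in the interaction by the same fit (-0.19). With single libraries left out, Aco1 in the combination against oxLDL ran from -0.02 (without combination 2) to 0.06. Against tirzepatide, Acod1 ran from -0.05 to 0.03 (without tirzepatide 1), Idh3a from -0.01 (without tirzepatide 4) to 0.06 and Sdha from -0.03 to 0.02 (without tirzepatide 4). With tirzepatide against control, a description, Sdha reached 0.09 by limma on log2(TPM + 1) (-0.04 by edgeR), Idh1 0.02 and Idh2 0.01 (-0.02 each by edgeR on all libraries). DESeq2 gave no adjusted p for Acod1 in the interaction, and the fit of only the groups compared was not run there.

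Deviations of same-numbered libraries from their group means correlated at -0.127 to 0.189 over 24 pairs, with 5 above 0.1. For other pairs the range was -0.208 to 0.145. In 16 of 48 checks a library correlated best with its own number in another group, with 4 numbers to choose from. The ranges overlapped, and whether the numbers pair the libraries was not settled. With the replicate block, all genes called numbered 1357 in the combination against control (1012 without it), 17 against oxLDL (4), 378 against tirzepatide (174), 734 with oxLDL against control (514) and 29 in the interaction (8), and Acod1 stood at 0.89 in the first. The standard errors, 0.04 to 0.08 on the log2 scale between 2 groups and up to 0.11 in the interaction, limit what 4 libraries a group could show for these genes.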
